A study of Homo sapiens with 6 samples.

Results

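The 9 genes followed here act in blood clotting, in clot breakdown or as a protease inhibitor: F13A1, F3, F5, THBD, TFPI, PLAU, PLAUR, SERPINB2 and A2M. Every probe set that the array annotation pairs with exactly 1 of these symbols was taken, whatever its values. This gave 20 of the 54675 probe sets and 8 of the 9 genes, and 19775 genes had such a probe set in all. SERPINB2 had no probe set paired with it in the annotation and was not analysed here.

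THP1 is an established monocytic acute myeloid leukaemia cell line. In 3 samples the cells spent 48 hours on a coating of Dll4-Fc, a fusion of the Notch ligand Delta-like 4 with an antibody Fc part, and 3 samples had none; these the sample labels call untreated and the protocol calls vehicle. The sample labels give 60 nM Dll4-Fc and the protocol 30 nM, so the dose is not settled here, and neither names a coating with Fc alone. Each sample was measured on 1 Affymetrix Human Genome U133 Plus 2.0 array after amplification of 5 ng of total RNA, and all 6 samples are of this 1 line. The labels do not state that a group's samples were grown as separate cultures, so each p-value reflects the spread among these samples alone, which may be technical.

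Clotting at a wound starts when tissue factor, the product of F3, meets factor VII in plasma, and monocytes are the main blood cells that can be induced to make it. Tissue factor pathway inhibitor (TFPI) blocks that first step, factor V (F5) is the cofactor that speeds thrombin formation, and thrombomodulin (THBD) turns thrombin into an activator of the anticoagulant protein C. Factor XIII, whose catalytic A subunit is the product of F13A1, cross-links the finished fibrin. Fibrin is dissolved by plasmin, which urokinase (PLAU) makes from plasminogen on cells that carry the urokinase receptor (PLAUR), and alpha-2-macroglobulin (A2M) traps proteases of many kinds, plasmin and thrombin among them.

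The sequences just upstream of genes that rose and genes that fell are shown first, since they are the stretches of DNA next to the changes described here. RefSeq's promoter table (GRCh38.p14) held 7 starts of 6 of the 8 measured genes, and none of THBD or A2M, which were not searched. The 250 bases before the annotated start are printed on the gene's own strand, with capitals for the letters that matched a searched motif. F13A1 and F3 fell, PLAU and PLAUR rose, and for PLAU the second of its 2 listed starts is shown. They lie at chr6:6320663-6320912 (F13A1, minus strand), chr1:94541760-94542009 (F3, minus strand), chr10:73910882-73911131 (PLAU, plus strand) and chr19:43670170-43670419 (PLAUR, minus strand).
F13A1: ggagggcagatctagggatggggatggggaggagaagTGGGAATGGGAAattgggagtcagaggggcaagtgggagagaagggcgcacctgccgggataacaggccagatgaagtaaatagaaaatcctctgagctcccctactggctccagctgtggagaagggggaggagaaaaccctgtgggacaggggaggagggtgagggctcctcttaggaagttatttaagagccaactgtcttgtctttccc
F3: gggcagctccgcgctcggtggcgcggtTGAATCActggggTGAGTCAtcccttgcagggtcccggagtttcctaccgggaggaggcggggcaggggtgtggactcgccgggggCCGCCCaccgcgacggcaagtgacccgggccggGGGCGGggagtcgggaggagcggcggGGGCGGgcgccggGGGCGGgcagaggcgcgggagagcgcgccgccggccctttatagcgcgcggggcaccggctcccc
PLAU: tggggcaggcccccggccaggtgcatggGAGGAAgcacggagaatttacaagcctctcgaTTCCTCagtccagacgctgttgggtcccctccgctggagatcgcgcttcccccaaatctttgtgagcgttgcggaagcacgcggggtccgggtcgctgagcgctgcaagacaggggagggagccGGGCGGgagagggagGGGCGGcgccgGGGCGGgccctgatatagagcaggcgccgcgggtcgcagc
PLAUR: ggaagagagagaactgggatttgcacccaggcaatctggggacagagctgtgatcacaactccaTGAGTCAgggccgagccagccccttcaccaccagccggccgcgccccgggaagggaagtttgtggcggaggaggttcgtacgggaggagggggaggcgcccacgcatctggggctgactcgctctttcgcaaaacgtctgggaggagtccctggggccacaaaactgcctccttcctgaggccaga

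Both strands were searched for TGGGAA, the core bound by the Notch effector RBPJ, TGANTCA (AP-1), GAGGAA (an ETS core), GGGCGG (GC box) and the NF-kB motif, and no match overlapped a match of another motif in the 7 windows. The RBPJ core stood in 3 of the 7 windows, as a direct repeat from base -213 to -202 of F13A1 and once each in TFPI and the first start of PLAU, and in 20.9% of 34943 promoter windows of the same length. AP-1 letters stood at -223 and -210 of F3 and at -186 of PLAUR, so in the window of a gene that fell and of one that rose, and in 6.59% of all windows. GC boxes stood in 2 of the 7 windows, 4 of them in F3 and 3 in the second PLAU start, and in 42.5% of all windows. The ETS core was found in the windows of TFPI and of the second PLAU start, and in 23.6% of all windows. The NF-kB letters were in none of the 7 windows and in 9.95% of all. A match is a description of letters, and no binding was measured.

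In THP1 cells on Dll4-Fc, the genes of the urokinase receptor, thrombomodulin, urokinase and alpha-2-macroglobulin rose, and those of factor XIII A, tissue factor and TFPI fell. By its brightest probe set (the one with the highest mean over the 6 arrays), A2M rose 89.3-fold, a size that is uncertain because its untreated mean lay below the median signal, PLAUR 3.17-fold, THBD 2.44-fold and PLAU 1.62-fold. F13A1 fell 3.24-fold, F3 1.81-fold and TFPI 1.35-fold, and F5 did not pass the test. The second A2M probe set did not pass either, with a difference of 0.01. TFPI lay below the median signal in both groups, and 3 of its 5 probe sets did not pass. Its call was lost when some single arrays were left out. So 4 of the 8 genes rose and 3 fell, where 22.1% of all 19775 genes passed, 10.1% higher and 12.1% lower, and 41.6% of genes had groups that did not overlap. The members were chosen with earlier results of these data known, so setting them beside these shares is a description and no test of the set. Of all genes that passed 45.4% were higher, and 55.8% after cyclic loess scaling. Of the 20 probe sets 13 passed, where 16.5% of all 54613 tested did and 33.2% had groups that did not overlap. The 13 were 9 that rose and 4 that fell, against 7.21% and 9.26% of all. At least 2-fold, 3 of the 8 genes were higher and 1 lower (2.6% and 0.602% of all genes), as were 7 and 1 of the 20 probe sets (1.65% and 0.385% of all). The groups did not overlap for 7 of the genes and 13 of the probe sets. The median difference was 0.34 over the 8 genes and -0.01 over all genes. Passing means an adjusted p under 0.05 in limma's moderated test across all probe sets, with Benjamini-Hochberg adjustment. A difference is the Dll4-Fc mean minus the untreated mean, in log2 units. The ± after a difference is its moderated standard error in limma's fit, with n = 3 arrays per group. For a contrast between 2 probe sets of a gene, ± is the standard error from the arrays' own spread, without moderation. In a bulk sample, a change in how many cells make a transcript and in how much each cell makes cannot be told apart.

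**Figure D1:**
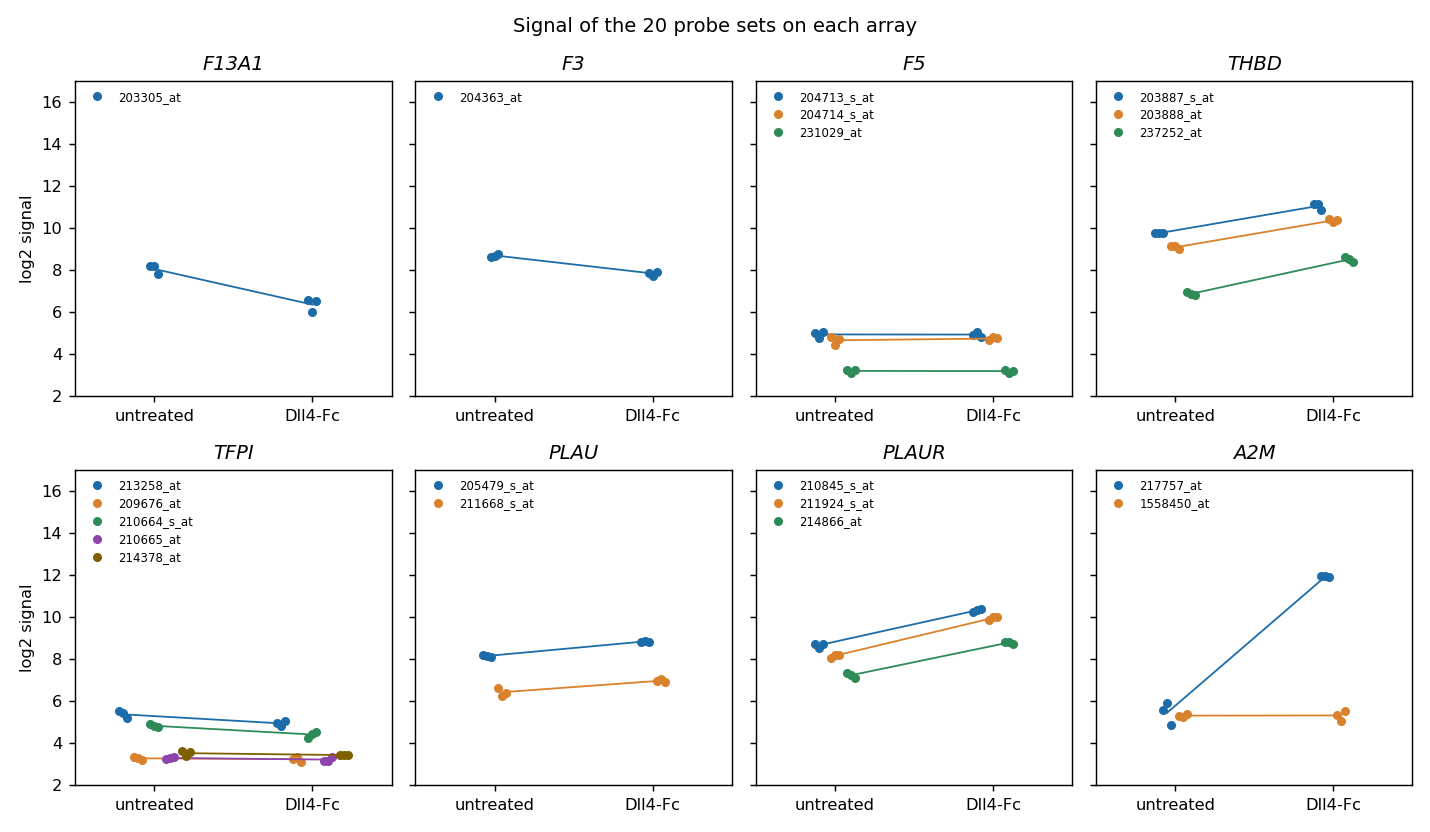
Log2 signal (y axis) of each of the 20 probe sets on the 3 untreated and the 3 Dll4-Fc arrays, 1 panel per gene. Points are arrays, colours are probe sets and lines join the group means. All probe sets of THBD, PLAU and PLAUR run upward, F13A1 and F3 run downward, and the 2 probe sets of A2M part, one rising from 5.44 to 11.92 and the other at 5.30 and 5.31.

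Quantile normalization of the deposited values draws arrays to a common distribution, so their near-equal medians do not show that the arrays were alike. Median intensity ran from 50.6 to 52.7 per array, and the correlation of 2 arrays across probe sets was 0.996 to 0.998 in the same group and 0.984 to 0.988 in different groups. Of 8 measured markers of monocytic cells 6 rose with Dll4-Fc and 0 fell (7 and 0 at an unadjusted p under 0.05 in limma's test), where 22.1% of all genes passed. CD14, the lipopolysaccharide coreceptor, rose from 4.98, below the median signal, to 10.62 on the log2 scale. Of the 8, 1 lay below the median signal in both groups, and the listed markers CD33 and CD68 were not measured. The summed intensity of the 8 markers was 7597 to 8354 on untreated and 22542 to 24711 on Dll4-Fc arrays, and its part in the results below was not tested. Of 30 measured markers of other cell types, among them liver, endothelium and platelets, which make clotting proteins, 18 lay below the median signal in both groups. Summed intensities on untreated and Dll4-Fc arrays were 351 to 409 and 339 to 363 for 6 megakaryocyte and platelet genes, 215 to 219 and 208 to 239.9 for 7 endothelial genes, and 282 to 299.7 and 278 to 295 for 6 hepatocyte genes. For 6 fibroblast genes they were 394 to 442 and 419 to 451, and for 5 lymphocyte genes 309.8 to 331 and 303 to 332. Of the 30 genes 1 passed, GP9, a platelet glycoprotein, lower by 0.25 (adjusted p = 0.0491).

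The starter of clotting and its inhibitor were both lower. F3, the gene of tissue factor, had log2 signals of 8.63, 8.69 and 8.79 on the untreated arrays and of 7.86, 7.74 and 7.92 on the Dll4-Fc arrays. The groups did not overlap, and the arrays of each group lay within 0.18 of each other. F3 fell by 0.86 ± 0.08 (95% confidence interval -1.04 to -0.68, adjusted p = 0.00021), and 1.12% of all genes had a larger fall. It is represented by the single probe set 204363_at, so no other probe set can be set beside it.

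TFPI blocks the complex of tissue factor and factor VII. Its brightest probe set, 213258_at, read 5.50, 5.41 and 5.17 on untreated and 4.94, 4.82 and 5.02 on Dll4-Fc arrays. The groups did not overlap, but the lowest untreated and the highest Dll4-Fc array were close. It fell by 0.43 ± 0.10 (adjusted p = 0.0221), and a second probe set, 210664_s_at, fell by 0.42 ± 0.09 (adjusted p = 0.0137). The other 3 TFPI probe sets differed by -0.04 to -0.09 and did not pass, with adjusted p of 0.535 to 0.838. All 5 lay below 5.69, the median log2 signal of all values, in both groups, so TFPI was measured near the lower end of the scale. The fall of 213258_at did not pass without untreated replicate 1 (adjusted p = 0.0692) or 2 (0.079), or without Dll4-Fc replicate 1 (0.07) or 2 (0.0821). That of 210664_s_at did not pass without untreated replicate 1 (adjusted p = 0.0506). As the mean of its 5 probe sets TFPI fell by 0.21.

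Factor V is made mainly in liver and stored in platelets. All 3 F5 probe sets lay below the median signal and none passed: the brightest, 204713_s_at, read 5.01, 4.76 and 5.06 on untreated and 4.92, 5.07 and 4.81 on Dll4-Fc arrays. The groups overlapped. Its difference was -0.01 ± 0.10 with a 95% confidence interval from -0.25 to 0.23, and the intervals of the other probe sets were -0.16 to 0.33 and -0.17 to 0.15. A change in a transcript too scarce for these probes would not show.

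Factor XIII A, the fibrin cross-linker, is a known product of monocytes and macrophages. F13A1 read 8.19, 8.18 and 7.79 on untreated and 6.56, 5.99 and 6.54 on Dll4-Fc arrays. Untreated replicate 3 was the lowest of its group and Dll4-Fc replicate 2 the lowest of the other, yet 1.24 log2 units separated the groups. F13A1 fell by 1.70 ± 0.17 (95% confidence interval -2.09 to -1.30, adjusted p = 0.000417), and 11 of the 19775 genes fell further. It, too, has 1 probe set, 203305_at. Its fall lay between -1.83 and -1.51 when any array was left out.

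Thrombomodulin sits on the cell surface and changes the substrate of thrombin from fibrinogen to protein C. Its brightest probe set, 203887_s_at, read 9.76, 9.77 and 9.75 on untreated and 11.17, 11.13 and 10.85 on Dll4-Fc arrays. The untreated arrays were nearly identical, and Dll4-Fc replicate 3 was the lowest of its group, well above them. THBD rose by 1.29 ± 0.09 on this probe set (adjusted p = 5.99e-05), by 1.28 ± 0.07 on 203888_at and by 1.64 ± 0.09 on 237252_at. The third rose by 0.35 more than each of the others, and both of those contrasts gave an exact 2-sided permutation p of 0.1, the smallest that 3 arrays against 3 allow (adjusted p = 0.233 over the 21 pairs of probe sets compared within genes). PROCR, the endothelial protein C receptor that hands protein C to thrombomodulin, also rose. It read 8.31, 8.09 and 7.95 on untreated and 9.22, 9.27 and 9.19 on Dll4-Fc arrays, a rise of 1.11 ± 0.10 (adjusted p = 0.000175). PROS1, the gene of protein S, the cofactor of activated protein C, fell by 0.56 ± 0.07 (adjusted p = 0.00165), from 10.64 to 10.08.

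**Figure D2:**
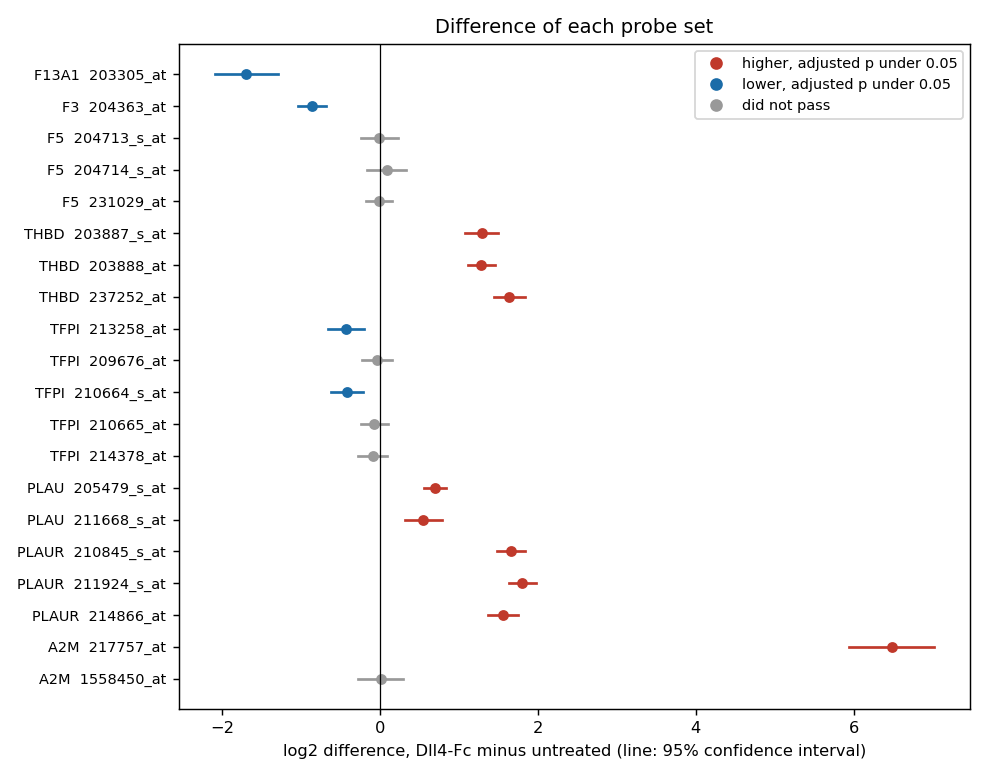
Log2 difference (x axis, Dll4-Fc minus untreated) of the 20 probe sets, with 95% confidence intervals as lines, grouped by gene and coloured by the test. Within THBD, PLAU and PLAUR every interval lies above 0; in TFPI 2 of 5 intervals lie below 0 and 3 include it; and in A2M 1 interval lies near 6.48 and the other includes 0.

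Urokinase and its receptor both rose. PLAUR anchors urokinase at the membrane and keeps plasmin formation close to the cell. Its brightest probe set, 210845_s_at, read 8.68, 8.54 and 8.73 on untreated and 10.24, 10.33 and 10.37 on Dll4-Fc arrays. The groups were far apart and each spanned less than 0.2. PLAUR rose by 1.66 ± 0.08 (adjusted p = 5.3e-06), by 1.80 ± 0.07 on 211924_s_at and by 1.56 ± 0.08 on 214866_at. That last one is not shared between transcripts, while the first and second are. Between probe sets, the rise on 211924_s_at was larger by 0.24 ± 0.13 than that on 214866_at, and the rise on 210845_s_at differed by -0.14 ± 0.07 from that on 211924_s_at and by 0.10 ± 0.13 from that on 214866_at. The exact 2-sided permutation p of these pairs was 0.2 to 0.4, in a design that cannot go below 0.1, so whether the 3 changes differ was not settled.

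PLAU encodes the protease that cuts plasminogen to plasmin. The probe set 205479_s_at read 8.16, 8.13 and 8.11 on untreated and 8.80, 8.87 and 8.82 on Dll4-Fc arrays. Each group spanned less than 0.1. PLAU rose by 0.69 ± 0.06 (adjusted p = 0.000196) here and by 0.55 ± 0.10 (adjusted p = 0.00857) on 211668_s_at, which read 6.62, 6.24 and 6.38 against 6.92, 7.04 and 6.91. Both probe sets are shared between transcripts, so without shared probe sets PLAU was not measured.

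A2M, a large protease trap that macrophages clear through the receptor LRP1, had the steepest change of the set. On 217757_at the untreated arrays read 5.57, 5.91 and 4.83 and the Dll4-Fc arrays 11.93, 11.93 and 11.89. The untreated arrays spread over more than 1 log2 unit and the Dll4-Fc arrays over 0.04. A2M rose by 6.48 ± 0.23 (95% confidence interval 5.94 to 7.02, adjusted p = 1.23e-06), and 6 of the 19775 genes rose further. The mean of the untreated arrays, 5.44, lies below the median signal of 5.69. The second A2M probe set, 1558450_at, read 5.26, 5.25 and 5.39 on untreated and 5.33, 5.05 and 5.54 on Dll4-Fc arrays. Those groups overlapped, and the difference was 0.01 ± 0.12 (adjusted p = 0.981). The changes of the 2 probe sets differed by 6.47 ± 0.40 (exact 2-sided permutation p = 0.1, the smallest possible; 0.233 adjusted over 21 pairs). The annotation pairs 217757_at with the A2M reference transcript NM_000014 and 1558450_at with the sequence BF056828, and which part of the gene each one reads was not determined here. As the mean of both probe sets A2M rose by 3.24.

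**Figure D3:**
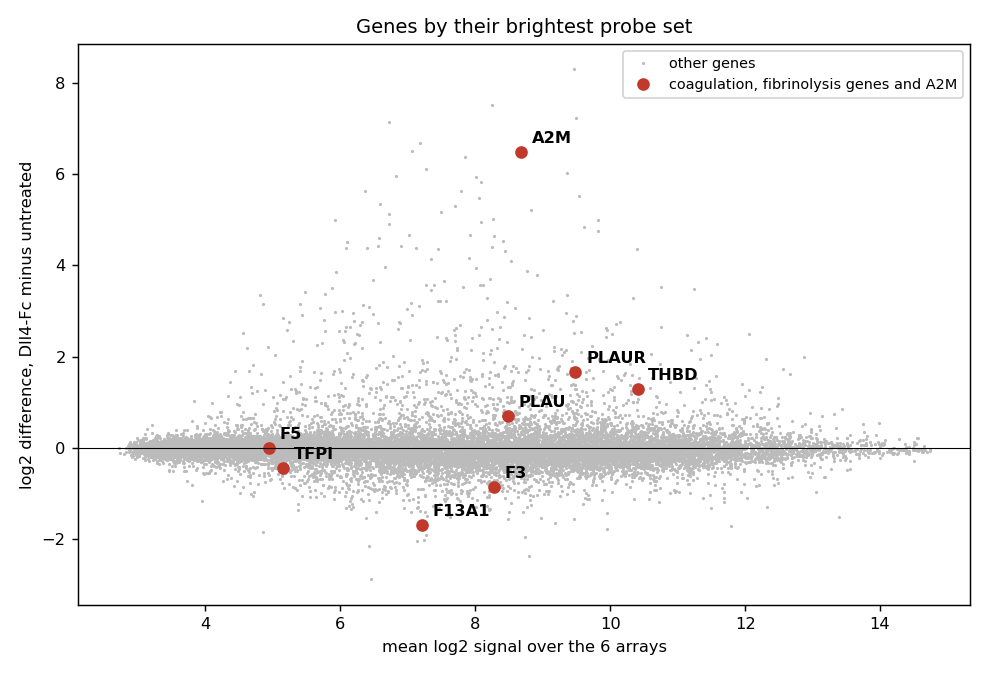
Log2 difference (y axis, Dll4-Fc minus untreated) against mean log2 signal over the 6 arrays (x axis) for 19775 genes, each by its brightest probe set, with the 8 measured genes in red. A2M stands among the largest rises at 6.48, F13A1 near the lower edge at -1.70, and F5 and TFPI at low signal.

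By the size and shape of their profile, the nearest genes to A2M were the survival gene BCL2A1, with a root mean square difference of 0.21 log2 units over the 6 arrays after subtracting each gene's untreated mean, IFI44L (0.33) and TRIM22 (0.35), the last 2 known as interferon-induced. F13A1 was nearest to the collagen gene COL4A5 (0.13), the desmosomal cadherin gene DSG2 (0.17) and the actin-binding SYNPO2 (0.18). PLAUR was nearest to KCNMB1, a potassium channel subunit (0.06), FCER1G, the signalling chain of Fc receptors (0.07), and GALM, a sugar epimerase (0.09). THBD was nearest to the aminopeptidase LAP3 (0.06), the lysosomal membrane protein SCARB2 (0.07) and the sugar kinase NAGK (0.07). With 2 groups of 3 arrays, this ranks genes mostly by the size of their difference.

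Of 67 measured genes in 8 further lists of the clotting and protease inhibitor systems, 12 rose and 6 fell, with a median difference of 0.08, so 26.9% passed where 22.1% of all genes did. In the plasminogen system, beside PLAU and PLAUR, of 10 measured genes 4 rose and 0 fell in limma's test (5 and 1 at an unadjusted p under 0.05). ANXA2, the annexin that holds plasminogen and tissue plasminogen activator at the cell surface, read 10.87, 10.80 and 10.75 on untreated and 13.29, 13.35 and 13.28 on Dll4-Fc arrays. It rose by 2.50 ± 0.06 or 5.65-fold (adjusted p = 2.21e-07). Its partner S100A10, which forms a tetramer with it, rose by 1.54 ± 0.06 (adjusted p = 2.92e-06), from 9.36, 9.39 and 9.31 to 10.85, 10.95 and 10.88, and by 1.02 as the mean of its 2 probe sets. In all, 3 ANXA2 probe sets rose, by 2.50 to 2.61, and each carries the ending _x_at, Affymetrix's mark for probes that may also match other sequences. The only ANXA2 probe set without such a mark lay at 3.61 in untreated cells and differed by 0.07 (adjusted p = 0.707). SERPINE2, an inhibitor of urokinase and thrombin, rose by 1.62 ± 0.12 (adjusted p = 6.25e-05) on 1 of its 2 probe sets, and the other, at 3.86 in untreated cells, differed by -0.08, so the mean of both rose by 0.77. PLAT, tissue plasminogen activator, rose by 0.32 ± 0.08 (adjusted p = 0.0249) at a signal below the median in both groups, and its adjusted p was 0.0673 to 0.0798 when untreated replicate 1 or any single array of the Dll4-Fc group was left out. Plasminogen itself (PLG) differed by -0.22 ± 0.11 and LRP1 by 0.12 ± 0.10, and neither passed.

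**Figure D4:**
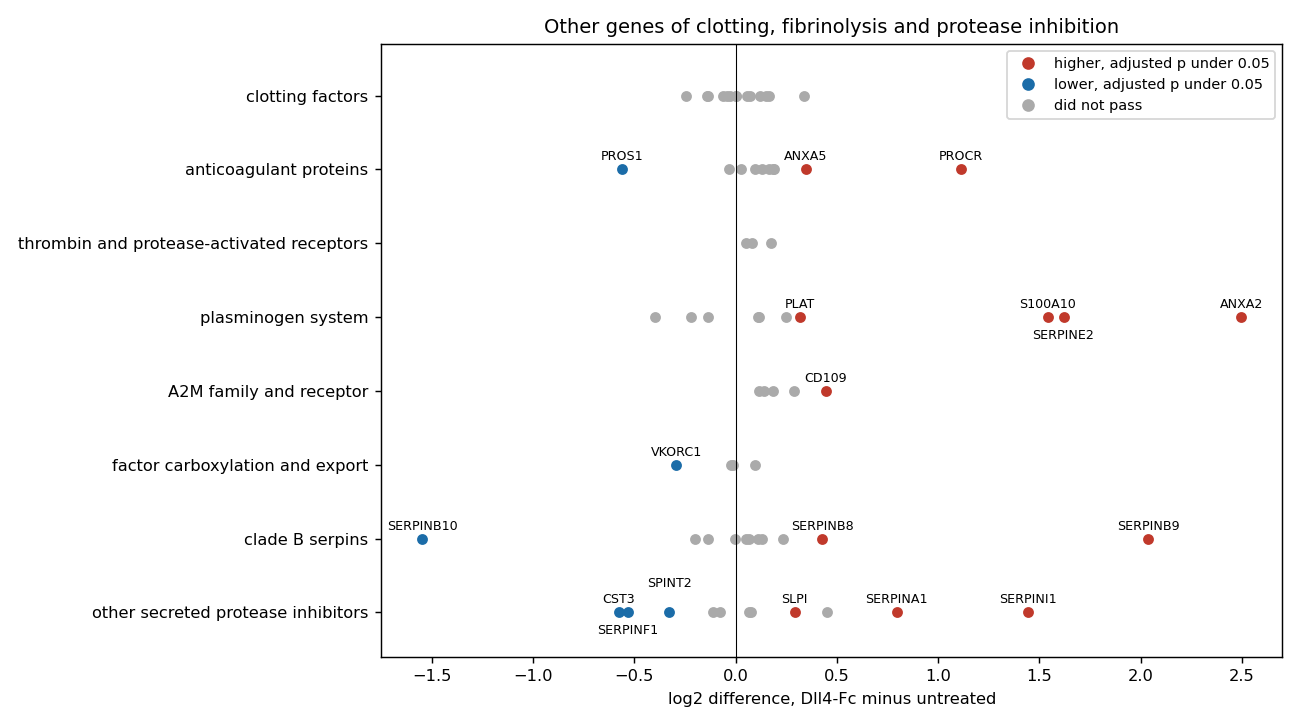
Log2 difference (x axis, Dll4-Fc minus untreated) of the measured genes of 8 lists (rows), each by its brightest probe set and coloured by the test; genes that passed are named. The clotting factors cluster around 0, while ANXA2, SERPINB9, SERPINE2, S100A10 and SERPINI1 lie above 1.4 and SERPINB10 lies at -1.55.

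None of the 14 other clotting factor genes passed in limma's test (1 higher and 1 lower at an unadjusted p under 0.05), where 22.1% of all genes did. Their median difference was 0.00. They are made mostly by hepatocytes and endothelium, and 10 of the 14 lay below the median signal in both groups. FGB, fibrinogen beta, had 1 dimmer probe set that passed, by 0.26 at a signal of 3.83, while its brightest differed by 0.00. Among 10 anticoagulant genes PROCR and ANXA5 rose and PROS1 fell, so 30% passed, near the share of all genes. ANXA5, which covers procoagulant phospholipid, rose by 0.35 ± 0.09 (adjusted p = 0.029) and did not pass without any 1 of the Dll4-Fc arrays (adjusted p = 0.0797 to 0.0883). The brightest probe sets of the 3 measured thrombin and protease-activated receptor genes did not pass (1 at an unadjusted p under 0.05 in limma's test). For F2R, the main thrombin receptor, the brightest differed by 0.17 ± 0.07 (adjusted p = 0.144), while the other, 203989_x_at, fell by 0.79 ± 0.19 (adjusted p = 0.0239), so its 2 probe sets disagreed. In the vitamin K cycle and the export route of factors V and VIII, 1 of 4 genes fell, VKORC1 by 0.29 ± 0.06 (adjusted p = 0.0169), and that call was lost when replicate 1 or 2 of either group was left out (adjusted p = 0.0589 to 0.0739).

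Other protease inhibitors went both ways. Of 5 genes of the A2M family and its receptor system CD109, a membrane-bound relative of A2M, rose by 0.45 ± 0.07 (adjusted p = 0.00267). A second of its 3 probe sets rose by 0.33, and the third differed by 0.15 and did not pass. The mean of all 3 rose by 0.31. PZP, the closest relative of A2M, differed by 0.29 ± 0.10 (adjusted p = 0.0948). Among 11 clade B serpins, the intracellular serpin family to which SERPINB2 belongs, 2 rose and 1 fell. So 27.3% passed, near the 22.1% of all genes. SERPINB9, the granzyme B inhibitor, rose by 2.04 ± 0.14 (adjusted p = 5.11e-05) on 1 of 3 probe sets, from 4.22, 3.94 and 3.90 to 6.12, 6.27 and 5.77, and its other 2 differed by -0.03 and -0.05; the mean of all 3 rose by 0.65. Its untreated mean of 4.02 lies below the median signal, so the size of the rise is uncertain, and it was not measured without dim probe sets. SERPINB8 rose by 0.43 ± 0.09 (adjusted p = 0.0134; 0.0517 without Dll4-Fc replicate 1), and by 0.26 as the mean of its 2 probe sets. SERPINB10, expressed in bone marrow cells, fell by 1.55 ± 0.10 (adjusted p = 3.99e-05), from 9.40, 9.31 and 9.08 to 7.62, 7.68 and 7.85. Of 11 genes in a list of other inhibitors and related proteins, not all of them secreted, 3 rose and 3 fell. That is 54.5%, where 22.1% of all genes passed. The largest of these changes were those of SERPINI1, neuroserpin, an inhibitor of tissue plasminogen activator (1.44 ± 0.08, adjusted p = 1.67e-05), SERPINA1, the elastase inhibitor alpha-1-antitrypsin (0.79 ± 0.09, 3 of 4 probe sets higher), and CST3, the cysteine protease inhibitor cystatin C (-0.58 ± 0.07). CST3 gave -0.07 (adjusted p = 0.567) as the mean of its 3 probe sets, and SERPINA1 gave 0.33 without shared probe sets. The untreated mean of SERPINA1, 5.48, lay below the median signal, so the size of its rise is uncertain.

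The chromosomal neighbours of the 8 genes mostly did not pass. Of 29 measured protein-coding genes within 2 places on either side, 3 rose and 3 fell, where 22.1% of all genes passed. This set was chosen after the members' values were seen. Of the 6 that passed, 5 went the same way as the gene they neighbour, where 45.4% of all genes that passed were higher. Whether neighbours change together was not tested. Both genes next to F3 fell, ABCD3 by 0.29 ± 0.07 (adjusted p = 0.0219) and SLC44A3 by 0.67 ± 0.14 (adjusted p = 0.0124). SLC44A3 lay below the median signal in both groups. RREB1, 2 places from F13A1, fell by 0.49 ± 0.06 (adjusted p = 0.00149). VCL, next to PLAU, rose by 0.26 ± 0.07 (adjusted p = 0.0361), and M6PR, 2 places from A2M, by 0.44 ± 0.08 (adjusted p = 0.00853). LY86, next to F13A1, went the other way and rose by 0.98 ± 0.08 (adjusted p = 1e-04). CD93, next to THBD, differed by 0.10 ± 0.06 (adjusted p = 0.374), and KLRG1 and PZP, on either side of A2M, did not pass.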

How the data were processed

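The authors deposited linear intensities, 1 for each probe set on each array, computed with RMA (background correction, quantile normalization, probe summary) per the submitters' processing notes, version not given in the sources used here. Quantile normalization hides a change in total RNA per cell. Here the values were log2 transformed and 62 control probe sets left out. The platform annotation gave exactly 1 symbol to 41091 probe sets, several to 1801 and none to 11721. All 54613 probe sets were fitted with limma 3.58.1 in R 4.3.3 (lmFit, eBayes, 2-sided, 4 residual degrees of freedom), with Benjamini-Hochberg adjustment and a threshold of 0.05. Standard errors of the differences had a median of 0.086. The spread and number of arrays set them, together with limma's moderation, which draws each variance toward a value shared by all probe sets. Standard errors of contrasts between probe sets of a gene were not moderated. Members, lists and motifs were chosen with earlier results of these data known. Named are the members and, per list, the 3 largest changes that passed, or all where 5 or fewer passed; F2R, FGB, PLG, LRP1, PZP and the neighbours were named after their values were seen. On simulated data for this comparison with 54613 probe sets, 23 of 50 planted log2 differences of 0.5, 43 of 50 of 1 and all 50 of 2 were recovered. Only 170 probe sets passed in that simulation, against 8996 in the data. The adjustment was therefore stricter in the simulation, and its shares recovered are not the sensitivity in these data. The alternatives tried were a block for the replicate number, cyclic loess, median centring, a trended robust prior, array weights, leaving out dim probe sets or those shared between transcripts (ending _s_at, _x_at or _a_at), 1 probe set or the mean per gene, and leaving out each array.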

Additional observations from a re-analysis of the deposited data

How the results depend on the processing

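The directions and calls of A2M (217757_at), F13A1, F3, PLAU, PLAUR and THBD held under every alternative listed that measured them. Without shared probe sets, 4 in place of 9 member probe sets were higher. The other risers were left out there, and every riser that was kept passed. Leaving out dim probe sets gave 2 in place of 4 lower, since those of TFPI were removed, and the 2 kept passed. With 1 array left out, 9 were higher and 2 to 4 lower, with 2 lower without untreated replicate 1. Arrays share replicate numbers between groups, but deviations of same-numbered arrays correlated at -0.144 to -0.0226 and 0 of 6 arrays matched best with their own number, so nothing shows that the numbers pair them. With the replicate block TFPI gave -0.432 (adjusted p = 0.0513), 3 probe sets and 2 of the 8 genes were lower, 9 pathway genes rose and 4 fell, and 1585 of all genes in place of 2391 were lower. That last count was 1319 to 2531 with 1 array left out. Of the pathway genes 3 in place of 6 fell without shared probe sets, where PROS1, VKORC1 and SPINT2 were not measured. Without Dll4-Fc replicate 1, 8 in place of 12 rose. Cyclic loess turned the share of calls that were higher from 45.4% to 55.8% of genes that passed, and it was 51.3% to 52.6% without untreated replicate 1 or 2 or Dll4-Fc replicate 1 or 2. Differences near 0 changed sign, none of them passing. F5 204713_s_at gave 0.085 with array weights and -0.0973 to 0.0573 with 1 array left out, F5 231029_at 0.0416 and -0.0512 to 0.0261, F5 204714_s_at -0.0333 to 0.170, and F5 as the mean of its probe sets 0.0229. A2M 1558450_at gave -0.00329 with median centring and -0.110 to 0.137 with 1 array left out, and TFPI 209676_at -0.0981 to 0.0302. Apart from the probe sets that a setting left out, the cause of these shifts was not tested.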
